A study of Mus musculus with 6 samples.

Results

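The 37 genes described here mark the 4 differentiated cell types that leave the stem cell compartment of the small intestine along with Paneth cells: 9 goblet, 13 enteroendocrine, 5 tuft and 10 enterocyte markers. They were taken by exact gene symbol, not by their values, out of 23127 genes in the table, and each symbol matched 1 gene. The cells were intestinal stem cells of Lgr5-GFP mice on the C57BL/6 strain, a reporter in which green fluorescence marks cells that express the stem cell receptor Lgr5. Small-intestinal cells with high fluorescence were sorted, and 3 libraries came from cells kept with 1 ng/ml of the cytokine interferon gamma (IFNg) for 1.5 h in a crypt culture medium holding EGF, Noggin and R-spondin1. The other 3 libraries are labelled as receiving no treatment, and whether those cells stood in the medium for the same time is stated only through the sample titles. The libraries are named here by their group and the end number of their title. Values are listed throughout in the order untreated 5, 1 and 9, then IFNg 6, 2 and 10. Titles of libraries 5 and 6 also carry the tag GFP1 and the other 4 the tag GFP3, and the labels do not say what the tag means. Ages, pooling of animals and whether the libraries came from separate animals are not given, so the p-values rest on the spread between these samples, part of which may be technical.

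Crypt stem cells divide into transit-amplifying daughters that choose between an absorptive and a secretory fate, a choice set by Notch signalling and the transcription factor Atoh1. Absorptive daughters become enterocytes, which carry the brush border, digest sugars and peptides and take up fat. Secretory daughters become goblet cells, which make mucus, enteroendocrine cells, which release hormones, or Paneth cells, which stay at the crypt base and make antimicrobial proteins, while tuft cells sense luminal chemicals and parasites. A sort on Lgr5 is meant to leave these progeny behind. In bulk RNA, fewer cells of a type and less RNA per cell cannot be told apart.

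Between 28508762 and 40224497 reads per library fell in genes, and values are given as scaled counts, the read count of a gene divided by a size factor per library. A gene with no read could still have up to 3, equal to 2.56 to 3.16 scaled counts depending on the library, a floor that covers counting error only. The stem cell marker Olfm4 stood at 219689 to 266604 scaled counts over the 6 libraries and Lgr5 at 2484 to 8499, so the markers of the labelled cell type were present in all 6. The sum of 5 known interferon targets was 2887 to 3446 scaled counts untreated and 197472 to 220709 with IFNg, and these 5 passed the test. Libraries 1 and 2 stood apart in the X-inactivation transcript Xist, at 8336 and 6147 scaled counts against 0 to 16.9 in the other 4, and in the Y-linked gene Ddx3y, at 1.72 and 0.964 against 4219 to 6346. Xist and Ddx3y thus placed animals of both sexes within each group. Of the cell type lists, the Paneth markers had the widest sums: 14 of them summed to 112371, 170349 and 372902 scaled counts untreated and 26850.4, 113386 and 208243 with IFNg. Of these, Lyz1, Defa24 and Itln1 were the most abundant, and values of alpha-defensins such as Defa24 are uncertain because near-identical copies share reads. Leukocyte markers summed to 254 to 347 scaled counts over the 6 libraries and connective tissue and vessel markers to 202 to 660.2. The erythroid gene Alas2 stood at 0 to 5.26 scaled counts, and the 4 globin genes of that list were not found by symbol, so Alas2 alone stands for it.

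No marker of the 4 lineages passed the test for a response to IFNg. Of the 37 genes, 36 reached a mean of 10 scaled counts and were tested, and 0 were higher and 0 lower in limma, edgeR or DESeq2 at a Benjamini-Hochberg adjusted p below 0.05, where limma called 0.429% of all 16095 tested genes, edgeR 0.385% and DESeq2 2.89%. At an unadjusted p under 0.05 limma also gave 0 of 36 markers, beside 9.22% of all tested genes, and the smallest unadjusted limma p was 0.109, for Sst. With neighbouring library numbers as a replicate block it gave 5 of 36 beside 13.1% of all genes, and with the tag as a block 2 beside 14.1%, none of them past the adjustment. In 0 of the 36 did the 3 IFNg libraries lie wholly above or below the 3 untreated ones, beside 13.2% of all tested genes. The median log2 change was -0.25 over goblet, -0.24 over enteroendocrine, 0.06 over tuft and -0.32 over enterocyte markers, beside -0.08 over all tested genes. Leaving out 1 library moved these medians to between -0.75 and 0.31, -0.56 and 0.17, -0.04 and 0.24, and -0.50 and -0.14. They turned above 0 for the goblet and enteroendocrine markers without untreated 9, and below 0 for the tuft markers without untreated 1 or IFNg 10. Fitted changes were above 0 for 12 of the 36 markers (33.3%) and for 42.9% of all tested genes. Counts were simulated on these 16095 genes for 3 against 3 libraries drawn independently, with changes given only to genes with a mean of at least 50. There limma found 4% of the 50 genes given a 2-fold change, against 72% at 4-fold and 94% at 8-fold. The markers' own median SD of log2 values over the 6 libraries, 0.811, exceeded the 0.50 of all tested genes, and no rate was simulated for markers alone. Changes of about 2-fold in single markers were therefore mostly not detectable at this replication. Paneth markers had fitted changes below 0 in 14 of 14 and 0 calls, and their part in the values of the 36 markers was not tested.

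**Figure D1:**
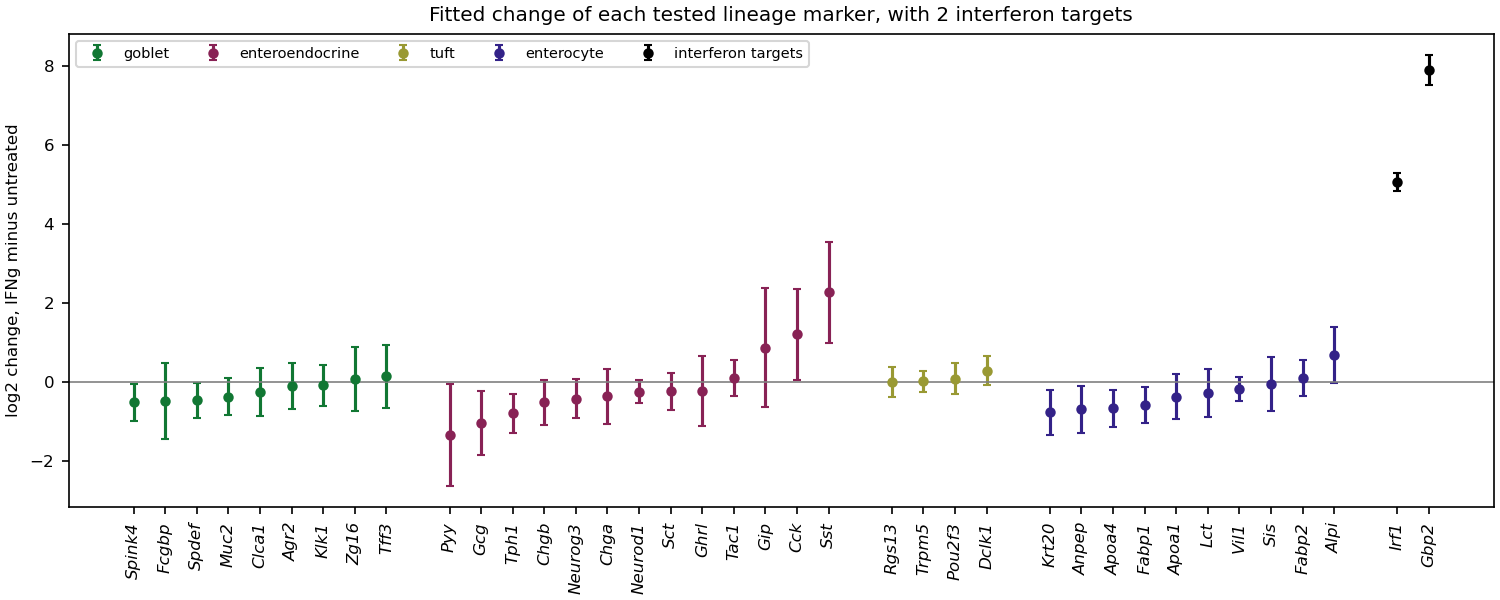
Fitted log2 change on the vertical axis, IFNg minus untreated, for the 36 tested lineage markers on the horizontal axis, coloured by lineage, with Irf1 and Gbp2 as interferon targets in black. Points are limma estimates from 3 against 3 libraries and bars are 1 SE; Irf1 lies at 5.07 and Gbp2 at 7.90, while the markers lie between -1.34 (Pyy) and 2.28 (Sst).

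Irf1, an interferon-induced transcription factor, had 1718, 1726 and 1876 scaled counts untreated and 55019, 66943 and 56965 with IFNg, and its groups lay far apart (log2 change 5.07 ± 0.23 (SE), adjusted p = 2.33e-05 in limma).

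Promoter sequence was read for the hormone genes, since the cyclic AMP response element TGACGTCA is the classic control element of the somatostatin gene. This motif, which reads alike on both strands, was searched within the 250 bases before the gene start in RefSeq on build GRCm38.p6. RefSeq windows were found for 31 of the 37 markers, not for Pou2f3, Spink4, Zg16, Il25, Clca1 or Tff3. It was in 2 of these 31 windows (6.45%), those of Chgb and Sst, and in 1.77% of all 27025 windows. Because the motif was chosen for Sst, and all windows include those of genes not tested here, these shares cannot show an excess among the markers. These 2 hormone cell genes carry results below, so their matches are shown with the motif in capitals. The Chgb match lies 72 to 65 bases before the RefSeq start (chr2:132781559-132781588, plus strand) and the Sst match 48 to 41 bases before it (chr16:23890874-23890903, minus strand), and both stretches overlap an annotated exon of their gene. A match is a description of the letters and not a bound site.
Chgb: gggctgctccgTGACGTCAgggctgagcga
Sst: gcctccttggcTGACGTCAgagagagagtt

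Per kilobase of exon, the goblet markers Spink4, Tff3 and Agr2 were the most abundant of the 37 genes. Spink4, a small protease inhibitor of goblet cells, averaged 42783 scaled counts per kilobase over the 6 libraries, the mucus-stabilising trefoil peptide Tff3 34404 and the mucin-folding protein Agr2 23661. Their ranges, from 20932 to 91584, 6153 to 56958 and 8531 to 42776, overlapped, so these neighbours in the order did not separate beyond their spread. Next came the brush border protein Vil1 at 5342 and the fatty acid carrier Fabp2 at 4746, then Fcgbp, Clca1, Chgb, Zg16 and Krt20, from 4232 down to 1769 scaled counts per kilobase. The remaining goblet markers stood lower, with Klk1 at 1623, the mucin Muc2 at 864 and Spdef at 137 scaled counts per kilobase. At the other end of the scale, 3 digestive enzymes of mature villus enterocytes were scarce, with sucrase-isomaltase (Sis) at 30.8, intestinal alkaline phosphatase (Alpi) at 28.9 and lactase (Lct) at 3.83 scaled counts per kilobase. The peptidase Anpep, of the same brush border, stood higher, at 237. Il25, the cytokine by which tuft cells alert immune cells to parasites, had 0 to 8 reads per library.

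**Figure D2:**
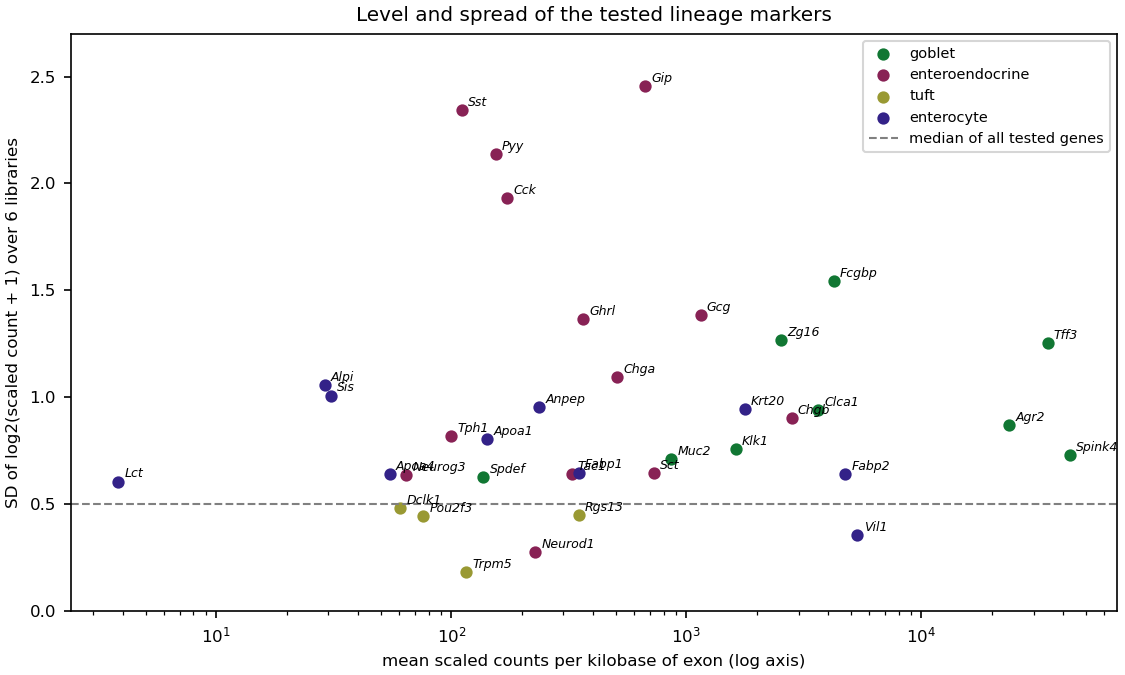
Mean level in scaled counts per kilobase of exon (horizontal, log axis) against the SD of log2(scaled count + 1) over the 6 libraries (vertical) for the 36 tested markers, coloured by lineage, with the median SD of all tested genes as a dashed line at 0.50. Hormone genes such as Gip, Sst, Pyy and Cck reach the largest SDs, between 1.93 and 2.45, and the 4 tuft markers lie below the line.

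From library to library, the enteroendocrine markers had the largest median spread and the tuft markers the smallest. The median SD of log2(scaled count + 1) over the 6 libraries was 1.09 for enteroendocrine, 0.868 for goblet, 0.726 for enterocyte and 0.446 for tuft markers, beside 0.50 for all tested genes. Of the hormones, Gip ranked at the 99.4th percentile of all tested genes in this spread, Sst at the 99.3rd, Pyy at the 98.7th and Cck at the 97.7th. The tuft channel gene Trpm5 ranked at the 3.62nd percentile. These are descriptions of 6 libraries, with treatment included in the spread.

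The 9 goblet markers made up the largest sum, 103632, 79689.6 and 280800 scaled counts untreated and 97158, 87920 and 175832 with IFNg. Untreated 9 was the highest library for 9 of 9 goblet markers, while untreated 9 was highest for 12.9% of all tested genes. It was also the highest for 13 of 14 Paneth markers, and connective tissue and vessel markers summed highest there too, at 660.2 scaled counts. The part of either in the goblet values was not tested. Without untreated 9 the median log2 change of the goblet markers went from -0.25 to 0.31, and without untreated 1 to -0.75, so its direction depended on single libraries. In limma, the goblet markers' adjusted p for IFNg ran from 0.880 to 0.987.

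Fcgbp (chr7:28071236-28120862 on GRCm38, plus strand), a mucin-like protein of the mucus gel, had 12719, 32851 and 103784 scaled counts untreated and 6024, 36563 and 74601 with IFNg. Its lowest values were in libraries 5 and 6 and its highest in 9 and 10, and the treatment groups overlapped (49785 ± 47836 (SD, n = 3) untreated and 39062 ± 34357 (SD, n = 3) with IFNg; log2 change -0.47 ± 0.96 (SE), adjusted p = 0.943 in limma). Spink4 had 18186, 12735 and 43686 scaled counts untreated and 16804, 9985 and 21050.3 with IFNg. Here untreated 9 alone lay well above the other 5 (log2 change -0.51 ± 0.47 (SE), adjusted p = 0.880 in limma). Agr2, the protein disulfide isomerase needed for Muc2 folding, had 34260.2, 11014 and 55224 scaled counts untreated and 37478, 15330 and 29973 with IFNg. Libraries 1 and 2 were the lowest pair, and the groups overlapped (log2 change -0.09 ± 0.57 (SE), adjusted p = 0.981 in limma).

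Tff3 followed the same order as Agr2 at the low end, with 23704, 3033 and 28080.4 scaled counts untreated and 23465, 7416 and 16068 with IFNg. Its lowest values were again in libraries 1 and 2 (log2 change 0.16 ± 0.80 (SE), adjusted p = 0.977 in limma). Zg16, a lectin that binds bacteria in mucus, had 2923, 699 and 6267 scaled counts untreated and 2946, 1015 and 5189.7 with IFNg, lowest in 1 and 2 and highest in 9 and 10. Clca1 (chr3:145003817-145032776, minus strand), a secreted protease that loosens mucus, had 5368, 14211 and 27059 scaled counts untreated and 5657, 11308 and 19046 with IFNg. For Clca1 the lowest values were in 5 and 6 instead, and the groups overlapped (log2 change -0.25 ± 0.61 (SE), adjusted p = 0.952 in limma).

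Muc2, the gel-forming mucin itself, had 4791, 4133 and 12430 scaled counts untreated and 3078, 4973 and 7524 with IFNg. Untreated 9 was the highest and IFNg 6 the lowest (log2 change -0.37 ± 0.47 (SE), adjusted p = 0.908 in limma). Spdef, the transcription factor that drives goblet maturation, had 387, 195 and 530.4 scaled counts untreated and 273, 165 and 343 with IFNg, with an adjusted p of 0.889 in limma. Its 6 values spanned a narrower range than those of the secreted products, 165 to 530.4. Klk1, a kallikrein protease, had 1294, 818 and 3741 scaled counts untreated and 1434, 1165 and 2036 with IFNg, with untreated 9 above the other 5.

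**Figure D3:**
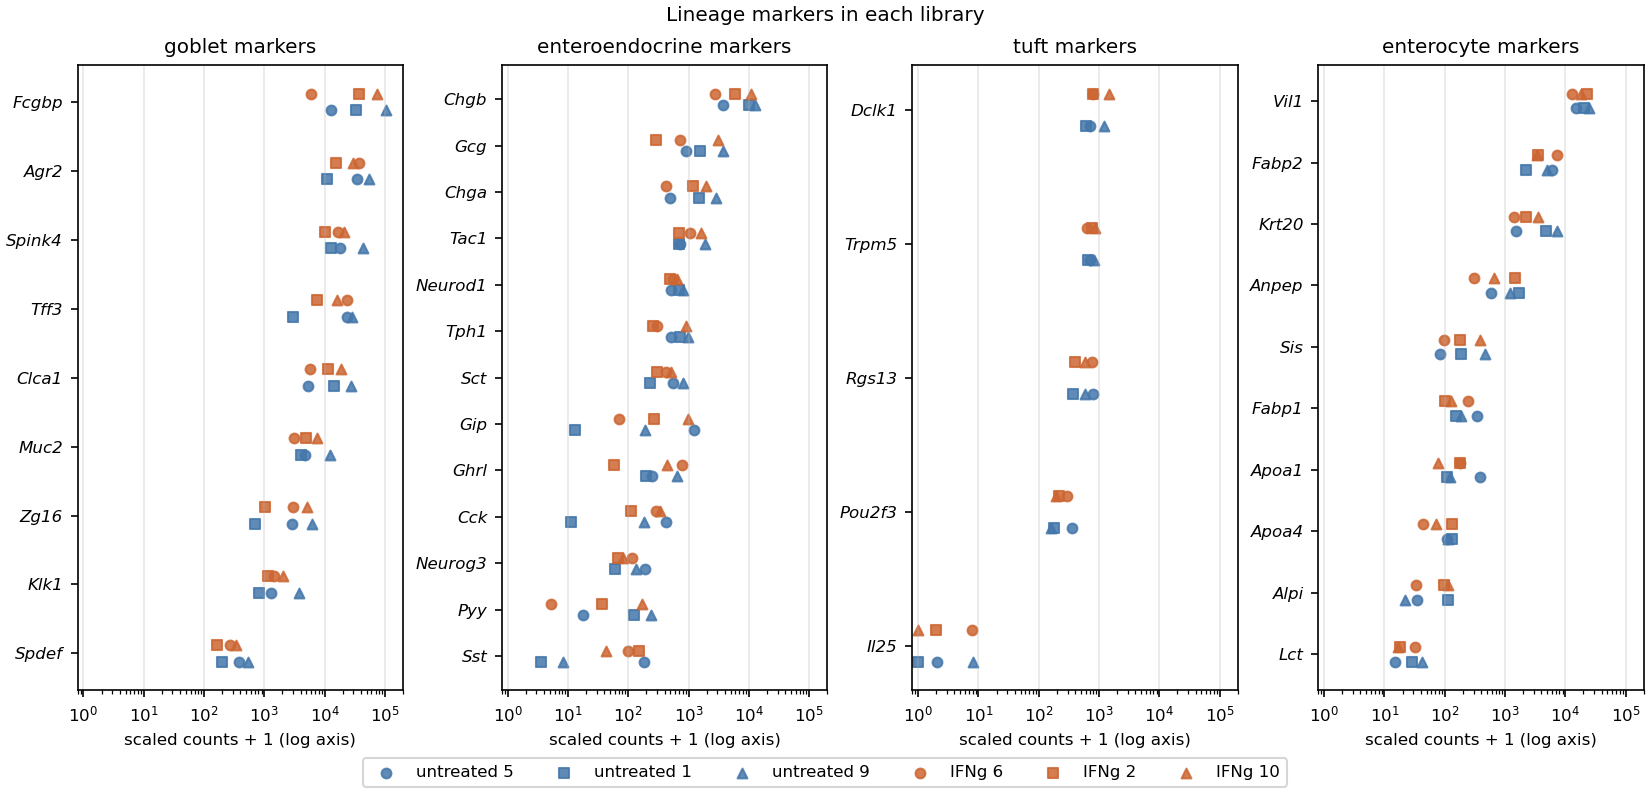
Scaled counts + 1 on a log axis (horizontal) for each of the 37 markers (vertical), in 4 panels by lineage. Each point is 1 library, untreated in blue and IFNg in orange, with circles for libraries 5 and 6, squares for 1 and 2 and triangles for 9 and 10; for each of the 36 tested markers the ranges of the blue and orange points overlap.

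The 13 enteroendocrine markers held the widest differences between libraries and no call. They summed to 9780.2, 15966 and 25133 scaled counts untreated and 7584, 9691 and 21616 with IFNg, and untreated 9 was the highest library for 8 of 13. Fitted log2 changes ran from -1.34 for Pyy (-2.54 to -0.04 without 1 library) to 2.28 for Sst (1.13 to 3.97), 4 above 0 and 9 below, and the smallest adjusted p in limma was 0.721. The granins, which pack hormones into secretory granules, were among the 3 with the highest counts. Chgb (chr2:132781278-132795079, plus strand) had 3795, 10169 and 12701 scaled counts untreated and 2741, 5806 and 10872 with IFNg. Chga (chr12:102554969-102565028, plus strand) had 491, 1468 and 2835 scaled counts untreated and 424, 1188 and 1961 with IFNg. Both were lowest in libraries 5 and 6 and highest in untreated 9, with overlapping treatment groups (log2 change -0.50 ± 0.57 (SE), adjusted p = 0.901 for Chgb in limma). For Chga the change was -0.35 ± 0.70 (SE) on the log2 scale, with a limma adjusted p of 0.940.

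Sst (chr16:23889573-23890958, minus strand), the somatostatin gene of D cells, was the 1 marker whose IFNg call depended on the libraries used. It had 183, 2.58 and 7.21 scaled counts untreated and 97.2, 148 and 41.2 with IFNg. Untreated 1 and 9 held 3 and 7 reads of it, while untreated 5 exceeded every IFNg library, so the groups overlapped (64.4 ± 103 (SD, n = 3) untreated and 95.3 ± 53.2 (SD, n = 3) with IFNg; log2 change 2.28 ± 1.28 (SE), adjusted p = 0.721 in limma). In the 4 GFP3 libraries alone the log2 change was 3.87 (limma adjusted p = 0.0195), where 8.27% of all genes were higher. Without untreated 5 it was 3.97 (limma adjusted p = 0.0311), where 2.27% of all genes were higher. In DESeq2 and edgeR, on all 6 libraries, the log2 change was 0.58 and 0.53. Within the GFP1 pair the difference ran the other way, at -0.91, and the test of the difference between tags gave a limma adjusted p of 0.137 with 1 GFP1 library per group. Without libraries 1 and 2, the remaining 4 gave no call for Sst or any other marker.

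Pyy (chr11:102106676-102107832, minus strand), the satiety peptide of L cells, had 16.9, 121 and 239 scaled counts untreated and 4.26, 35.7 and 168 with IFNg. It was scarcest in libraries 5 and 6, and IFNg 6 held 5 reads (log2 change -1.34 ± 1.28 (SE), adjusted p = 0.886 in limma). Gcg, which encodes glucagon-like peptides in the same cells, had 923, 1565 and 3756 scaled counts untreated and 729, 286 and 3040.2 with IFNg. IFNg 2 was the lowest and untreated 9 the highest (log2 change -1.03 ± 0.81 (SE), adjusted p = 0.867 in limma). The log2 change was -0.32 without libraries 1 and 2, and ran from -1.94 to -0.24 without 1 library. Cck, the hormone of I cells that empties the gallbladder, had 417, 10.3 and 184 scaled counts untreated and 288, 111 and 339.5 with IFNg. The low value in untreated 1 stood apart from the other 5 (204 ± 204 (SD, n = 3) untreated and 246 ± 120.0 (SD, n = 3) with IFNg; limma adjusted p = 0.883).

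Gip, the incretin of K cells, varied more than any other marker, with 1226, 12.0 and 191 scaled counts untreated and 69.9, 269 and 989 with IFNg. Its log2 difference was -4.11 between IFNg 6 and untreated 5, 4.37 between 2 and 1 and 2.37 between 10 and 9 (fitted log2 change 0.88 ± 1.50 (SE), adjusted p = 0.931 in limma). The difference in response between tags did not pass for Gip either (limma interaction adjusted p = 0.254). Tph1, the serotonin-forming enzyme of enterochromaffin cells, had 515, 730.4 and 975 scaled counts untreated and 303, 257 and 924 with IFNg, with IFNg 2 and 6 the lowest (log2 change -0.78 ± 0.50 (SE), adjusted p = 0.798 in limma). Tac1, the substance P precursor of the same cells, had 718, 706 and 1851 scaled counts untreated and 1063, 682 and 1610.0 with IFNg, highest in 9 and 10. Sct, the secretin gene, ranged from 232 in untreated 1 to 806 in untreated 9.

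Ghrl, the precursor of the appetite hormone ghrelin, had 247, 194 and 644 scaled counts untreated and 768, 57.8 and 435 with IFNg. The highest and the lowest value were both in IFNg libraries, so the groups overlapped (log2 change -0.22 ± 0.88 (SE), adjusted p = 0.969 in limma). Exons of Ghrl overlap those of 2 genes on the other strand, so its values are uncertain.

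Neurog3, the transient factor that commits cells to the endocrine fate, had 189.6, 59.4 and 132 scaled counts untreated and 116, 66.5 and 80.7 with IFNg. It ran from 59.4 to 189.6, with both ends in untreated libraries (log2 change -0.41 ± 0.49 (SE), adjusted p = 0.904 in limma). Neurod1, the factor that acts after it, had 517, 695 and 812 scaled counts untreated and 561, 489 and 646 with IFNg, the smallest spread of the 13 (an SD of 0.277 in log2; log2 change -0.24 ± 0.29 (SE), adjusted p = 0.904 in limma). Exons of Neurog3 overlap Fam241b on the other strand and those of Neurod1 overlap Cerkl on the same strand and Gm26755 on the other, so their values are uncertain.

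The 4 tested tuft markers had SDs of log2 values below the median of all tested genes. The sum of the 5 was 2554, 1818 and 2763 scaled counts untreated and 2488, 2166 and 3099 with IFNg. The 4 tested markers had fitted log2 changes of 0.01 to 0.29, all above 0. Trpm5 and Rgs13 turned below 0 under TMM scaling, and Trpm5, Rgs13 and Pou2f3 did so in edgeR and without untreated 1. The change of Dclk1 ran from 0.0015 to 0.58 without 1 library. Dclk1, a microtubule-associated kinase used to identify tuft cells, had 716, 599 and 1186 scaled counts untreated and 805, 793 and 1463 with IFNg. Libraries 9 and 10 were the highest pair, and IFNg exceeded untreated in each of the 3 neighbouring pairs (log2 change 0.29 ± 0.37 (SE), adjusted p = 0.906 in limma). Trpm5, the cation channel of taste-like signalling, had 698, 668 and 830.1 scaled counts untreated and 626, 756 and 866 with IFNg. Its log2 change was 0.03 ± 0.27 (SE), and the groups covered nearly the same range.

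Rgs13, a regulator of G protein signalling, had 782, 372 and 579 scaled counts untreated and 752, 398 and 578 with IFNg. Its means were 577 ± 205 untreated and 576 ± 177 with IFNg (SD, n = 3 each). Pou2f3, the master transcription factor of tuft cells, had 356, 179.8 and 161 scaled counts untreated and 298, 218 and 192 with IFNg, highest in libraries 5 and 6 (log2 change 0.09 ± 0.39 (SE), adjusted p = 0.971 in limma). Il25 had 1.05, 0 and 7.21 scaled counts untreated and 6.82, 0.964 and 0 with IFNg, was near the counting floor throughout, and was not tested. Exons of Trpm5 overlap Tssc4 on the opposite strand by 220 of 6398 bases, so its values are uncertain. Those of Dclk1 overlap Gm21954 by 27 and Gm42609 by 87 of 15296 bases, so reads from those stretches are uncertain.

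The 10 enterocyte markers summed to 24024, 30018 and 38879 scaled counts untreated and 22707, 30433 and 26312 with IFNg, most of it from Vil1, Fabp2 and Krt20. Fitted log2 changes were below 0 for 8 of 10, with 0 calls. Krt20 (chr11:99428403-99438150, minus strand), a keratin of differentiated villus cells, had the lowest fitted change of the 10. It had 1498, 4757 and 7142 scaled counts untreated and 1388, 2201 and 3468 with IFNg. Libraries 5 and 6 were the lowest, untreated 1 and 9 the highest, and untreated 5 lay within the IFNg range (4466 ± 2833 (SD, n = 3) untreated and 2352 ± 1049 (SD, n = 3) with IFNg; log2 change -0.75 ± 0.57 (SE), adjusted p = 0.858 in limma). In the 4 GFP3 libraries alone its log2 change was -1.08 (limma adjusted p = 0.0856).

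Anpep (chr7:79821803-79861059, minus strand), a brush border aminopeptidase, had 573, 1710.3 and 1205 scaled counts untreated and 299, 1436 and 659 with IFNg. Libraries 1 and 2 were the highest and 5 and 6 the lowest (log2 change -0.69 ± 0.59 (SE), adjusted p = 0.879 in limma; log2 change -0.90 without libraries 1 and 2). Vil1, which bundles actin in microvilli, had 14894, 20632 and 24553 scaled counts untreated and 13040.1, 22639 and 18067 with IFNg. Those values differed by less than their spread (log2 change -0.17 ± 0.31 (SE), adjusted p = 0.934 in limma). Fabp2 had 6086, 2205 and 5033 scaled counts untreated and 7360.1, 3456 and 3339 with IFNg, highest in 6 and 5 (log2 change 0.11 ± 0.45 (SE), adjusted p = 0.970 in limma). Vil1 exons overlap Usp37 on the other strand by 49 of 3551 exon bases, so reads from that stretch are of uncertain origin.

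The other 3 fat-handling markers had lower counts than Fabp2. Fabp1, the liver-type fatty acid carrier, had 348, 152 and 188 scaled counts untreated and 239.7, 99.3 and 127 with IFNg, and IFNg was below untreated in each of the 3 neighbouring pairs (log2 change -0.57 ± 0.45 (SE), adjusted p = 0.869 in limma). Apoa1, the main HDL protein, had 387, 109 and 122 scaled counts untreated and 180.0, 178 and 75.5 with IFNg, with untreated 5 above the rest. Apoa4, a chylomicron protein whose exons overlap 2 genes on the other strand, had 109.6, 129.9 and 110.2 scaled counts untreated and 41.8, 133 and 70.2 with IFNg (log2 change -0.66 ± 0.46 (SE), adjusted p = 0.842 in limma). IFNg 6 and 10 lay below the untreated values of Apoa4, while IFNg 2 lay above all of them.

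Sis, Alpi and Lct, enzymes of the brush border, were scarcer still per kilobase. Sis had 82.2, 182 and 463 scaled counts untreated and 94.7, 179 and 379 with IFNg, lowest in 5 and 6 and highest in 9 and 10 (log2 change -0.03 ± 0.68 (SE), adjusted p = 0.994 in limma). Alpi, the classic marker of mature enterocytes, had 33.7, 114 and 20.6 scaled counts untreated and 32.4, 94.5 and 111 with IFNg. Untreated 9 was its lowest library and untreated 1 its highest (log2 change 0.68 ± 0.70 (SE), adjusted p = 0.891 in limma). Lct had 13.7, 27.5 and 41.2 scaled counts untreated and 31.6, 17.4 and 15.8 with IFNg, or 13 to 40 reads per library (log2 change -0.27 ± 0.60 (SE), adjusted p = 0.949 in limma).

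The title tag separated several markers that treatment did not. With treatment and tag as terms in the limma fit, 7 of the 36 markers were higher in the 4 GFP3 libraries than in the 2 GFP1 libraries and 0 lower, beside 5.47% of all tested genes higher and 2.28% lower. They were the mucus proteins Fcgbp and Clca1, the granins Chga and Chgb, the hormone Pyy, the keratin Krt20 and the peptidase Anpep, and no tuft marker. Pyy had the largest difference (log2 difference 3.58 ± 0.64 (SE), adjusted p = 0.0281 in limma), with a mean of 10.6 scaled counts in GFP1 and 141 in GFP3. Fcgbp followed, with means of 9372 and 61949.5 (log2 difference 2.66 ± 0.48 (SE), adjusted p = 0.0287 in limma). Chga came next (log2 difference 1.95 ± 0.33 (SE), adjusted p = 0.0247), then Clca1 (log2 difference 1.62 ± 0.33 (SE), adjusted p = 0.0319) and Chgb (log2 difference 1.56 ± 0.27 (SE), adjusted p = 0.0277), all in limma. Anpep (log2 difference 1.51 ± 0.34 (SE), adjusted p = 0.0418) and Krt20 (log2 difference 1.48 ± 0.31 (SE), adjusted p = 0.0357) had the smallest of the 7 differences in limma. In these 7 genes the GFP1 libraries lay below all 4 GFP3 libraries. The GFP1 libraries, untreated 5 and IFNg 6, also had fewer genes with any read, 20216 and 19734 against 21301 to 22371 in GFP3. More of their reads were not aligned, 15.4% and 15.3% against 8.83% to 12.97% in GFP3. The tags also differed in sex-linked genes. Xist stood at 16.9 and 0 scaled counts in the GFP1 libraries and at 8336 and 6147 in the GFP3 libraries 1 and 2. In the GFP3 libraries 9 and 10 it stood at 11.3 and 15.8. The part of these library differences in the marker differences was not tested.

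**Figure D4:**
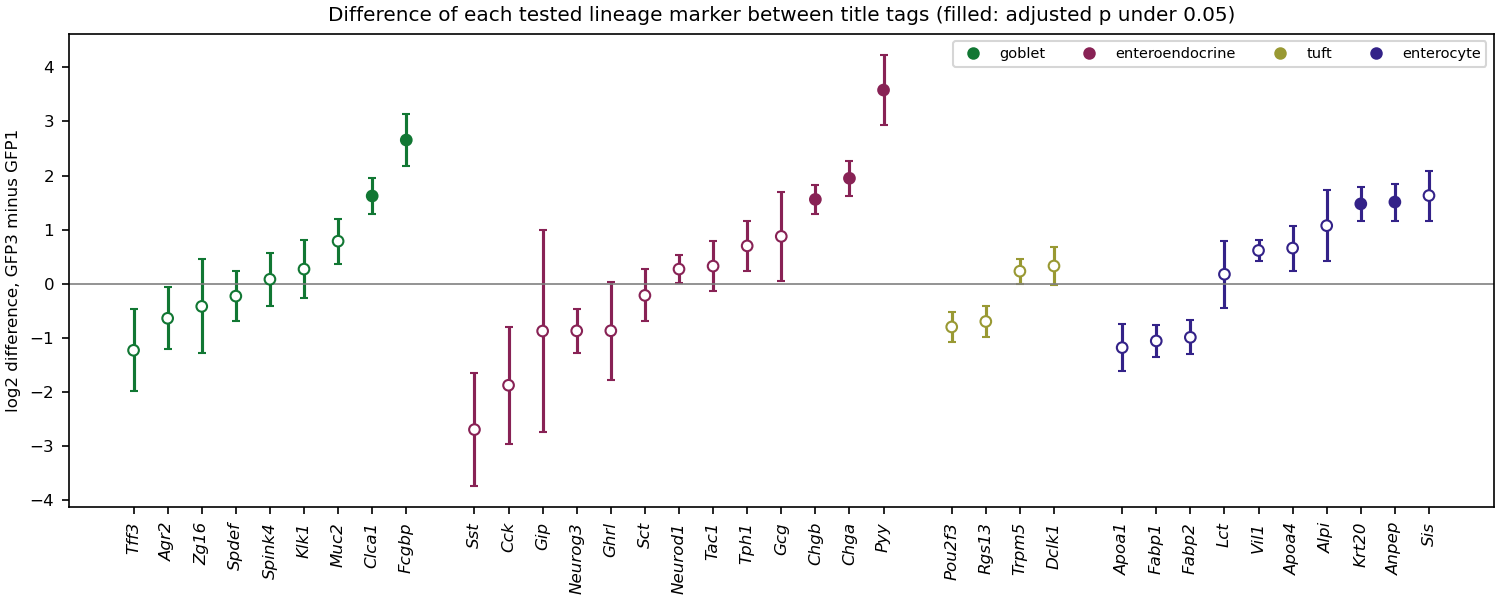
Fitted log2 difference, GFP3 minus GFP1, on the vertical axis for the 36 tested markers on the horizontal axis, coloured by lineage, from the limma fit with treatment as a term. Bars are 1 SE and filled points passed at an adjusted p below 0.05; the 7 filled points lie between 1.48 (Krt20) and 3.58 (Pyy).

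Within lineages the tag did not sort the markers alike. Of the goblet markers, Fcgbp and Clca1 were higher in GFP3, while Tff3 had a log2 difference of -1.23 ± 0.76 (SE) and Agr2 of -0.64 ± 0.57 (SE), neither past the test. Of the hormones, Sst lay the other way from Pyy, at -2.70 ± 1.04 (SE; limma adjusted p = 0.140). Of the enterocyte genes, Fabp1, Fabp2 and Apoa1 had differences of -1.06, -0.99 and -1.18 and did not pass. In 14 of the 36 markers the 2 tags did not overlap, beside 38.0% of all tested genes. By lineage these were 2 goblet, 3 enteroendocrine, 2 tuft and 7 enterocyte markers. Of the Paneth list 4 of 14, Lyz1 and Itln1 among them, were also higher in GFP3, and 14 of 14 had differences above 0. Over all tested genes 5.47% were higher, 2.28% were lower and 8406 of 16095 had differences above 0. Of 12 stem cell genes, 2 were higher in GFP3 and 0 lower, and 8 had differences above 0. Lgr5 was 1 of the 2 (log2 difference 1.14 ± 0.24 (SE), adjusted p = 0.0346 in limma). The part of either in the marker differences was not tested.

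These tag calls rest on 2 GFP1 libraries, which are also a neighbouring pair whose deviations from their group means went together. The test counts them, and the 4 GFP3 libraries, as independent, so its p-values may be too small. Without untreated 5, 0 of the 7 remained. Without untreated 1 only Fcgbp passed of the 7, without IFNg 6 only Krt20 and without IFNg 10 only Pyy. Without IFNg 2, 5 remained, the exceptions being Fcgbp and Anpep, and without untreated 9 all 7 passed, with Alpi then also higher and Fabp2 lower. Sst was lower in GFP3 without IFNg 6. The fitted differences of the 7 stayed above 0 in these fits, at 3.06 to 4.01 for Pyy, 2.20 to 3.12 for Fcgbp, 1.73 to 2.14 for Chga, 1.38 to 1.87 for Clca1, 1.37 to 1.76 for Chgb, 1.24 to 1.72 for Anpep and 0.99 to 1.96 for Krt20. The count over all tested genes, 881 higher in the main fit, fell in each of these fits. It was 797 when untreated 9 was left out, with 567 then lower. With untreated 1 dropped it was 50, with IFNg 2 dropped 111 and with IFNg 10 dropped 145. The marker calls did not follow these counts, since 5 of the 7 passed at 111 and only Pyy at 145. Fits lacking untreated 5 or IFNg 6 rest on 1 GFP1 library, so nothing is concluded from their marker calls, Sst included. Without libraries 1 and 2, 6 of the 7 remained, Anpep was the 1 lost, Gcg was then also higher, and 0.702% of all tested genes were higher. Without libraries 9 and 10 all 7 passed, and Tff3, Agr2, Zg16, Cck and Fabp2 were then lower in GFP3, where 4.96% of all tested genes were higher and 2.86% lower. EdgeR kept 5 of the 7, without Krt20 and Anpep, where 3.42% of all genes were higher, and DESeq2 kept 7, where 10.7% were higher. DESeq2 also called Sis and Vil1 higher and Sst, Pou2f3 and Fabp1 lower, where 7.17% of all genes were lower. For no marker did the test of a difference in response between the tags pass (0 of 36 in the limma interaction test, beside 0 of 16095 genes overall and 13.2% of genes at an unadjusted p under 0.05).

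**Figure D5:**
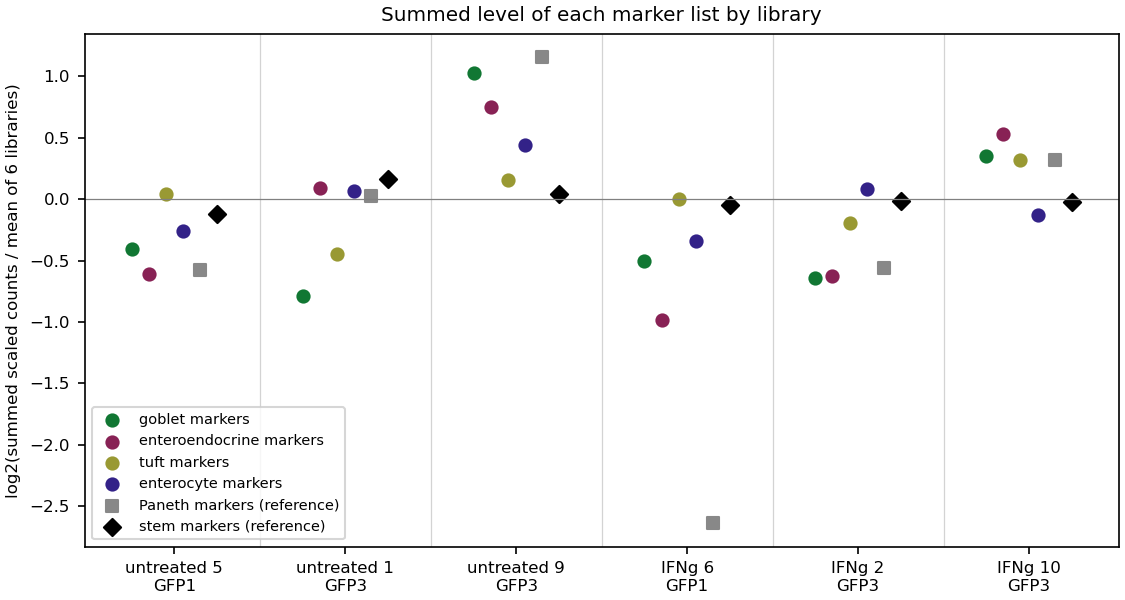
Summed scaled counts of each marker list as log2 of the ratio to its mean over the 6 libraries (vertical), by library with its title tag (horizontal). Circles are the 4 lineages, grey squares Paneth markers and black diamonds stem cell markers. Goblet and Paneth sums peak in untreated 9, while stem cell sums, which are mostly Olfm4, stay between 303720 and 370207 scaled counts.

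Compared within the 3 neighbouring pairs of libraries, the markers had no common direction. IFNg exceeded untreated for 11 of 36 markers between libraries 6 and 5, 19 of 36 between 2 and 1, and 7 of 36 between 10 and 9, beside 51.5%, 45.0% and 39.8% of all tested genes. For goblet markers these counts were 4, 6 and 0 of 9, and for tuft markers 1, 4 and 3 of 4. All 3 pairs lay below 0 for 10 markers, namely Spink4, Spdef, Chga, Chgb, Pyy, Gcg, Tph1, Fabp1, Anpep and Krt20, and above 0 for 1, Dclk1, or 27.8% and 2.78% of the 36, beside 22.4% and 15.1% of all tested genes. Within the GFP1 pair the median log2 difference was -0.01 for goblet, -0.47 for enteroendocrine, -0.11 for tuft and -0.15 for enterocyte markers. In the GFP3 libraries alone the fitted medians were -0.20, -0.42, 0.19 and -0.23.

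Further genes of the 4 lineages, listed by function but with earlier results of these data known, also gave 0 calls in limma. Of those tested, 0 of 18 goblet, 0 of 24 enteroendocrine, 0 of 20 tuft and 0 of 30 enterocyte genes passed. At an unadjusted p under 0.05 limma gave 2, 2, 0 and 2 of these, beside 9.22% of all tested genes. Groups did not overlap for 1, 3, 2 and 2, beside 13.2%. The 2 largest fitted changes among the goblet genes were in Galnt12, which starts mucin O-glycans, and Atoh1, the factor that opens the secretory fate. Galnt12 had 549, 274 and 275 scaled counts untreated and 481, 987 and 3234 with IFNg, with IFNg 10 far above the rest (log2 change 1.74 ± 0.63 (SE), adjusted p = 0.396 in limma). Atoh1 had 377, 968 and 244 scaled counts untreated and 230.3, 156 and 188 with IFNg, and its IFNg values all lay below the untreated ones (log2 change -1.24 ± 0.49 (SE), adjusted p = 0.452 in limma). Of the enteroendocrine genes, the neurotensin gene Nts had 0, 3.44 and 10.3 scaled counts untreated and 19.6, 0.964 and 164 with IFNg, at or below the floor in untreated 5 and IFNg 2, with the highest value in IFNg 10. Sox4, a progenitor transcription factor, had 428, 182 and 176 scaled counts untreated and 501, 929 and 3753 with IFNg, with all IFNg libraries above the untreated ones (log2 change 2.33 ± 0.69 (SE), adjusted p = 0.309 in limma).

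Among further tuft genes the acetylcholine-forming enzyme Chat had 0, 2.58 and 18.5 scaled counts untreated and 1.71, 17.4 and 22.8 with IFNg, at or below the floor in 3 libraries, and the phospholipase Plcb2 had 176, 38.7 and 78.3 scaled counts untreated and 131, 137 and 197 with IFNg, with overlapping groups. The enterocyte genes with the largest fitted changes were the homeobox factors Cdx1 and Cdx2, which hold intestinal identity. Cdx1 had 1897, 593 and 371 scaled counts untreated and 1939, 2874 and 8633 with IFNg, and untreated 5 nearly equalled IFNg 6 (log2 change 2.28 ± 0.68 (SE), adjusted p = 0.311 in limma). Cdx2 had 445, 155 and 158 scaled counts untreated and 561, 785 and 1239 with IFNg, with all IFNg libraries above the untreated ones (log2 change 1.88 ± 0.48 (SE), adjusted p = 0.286 in limma). Galnt12, Sox4, Cdx1 and Cdx2 passed in DESeq2, with adjusted p from 0.00725 to 0.0407, where 2.89% of all genes were called, and in the GFP3 libraries alone, where 8.27% were higher, with limma adjusted p from 0.00275 to 0.0133. Without untreated 5, Cdx1 and Cdx2 passed (limma adjusted p = 0.0457 and 0.0238). In edgeR 0 of these 4 passed. Of all 92 further genes, 5 were higher in DESeq2 (5.43%) and 7 in the GFP3 libraries alone (7.61%). Without libraries 1 and 2 the log2 changes were -0.54 for Atoh1, 1.68 for Galnt12, 2.32 for Sox4, 2.28 for Cdx1 and 1.65 for Cdx2. Within the GFP1 pair the log2 differences of Galnt12, Sox4, Cdx1 and Cdx2 were -0.19, 0.23, 0.03 and 0.34, and the tests of the difference between tags gave limma adjusted p of 0.126 to 0.202.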

How the data were processed

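RNA of 6 libraries (2 ng of total RNA, SMART-Seq v4 with 12 cycles, then 10 ng of cDNA in a KAPA Hyper preparation with 8 cycles, per the labels' protocols) was sequenced. The kits do not mark the strand and carry no molecular identifiers. Values are the authors' deposited scaled counts, a signal made by dividing each gene's reads by 1 size factor per library, per the file headers and name. Per the submitters' processing notes, which give no roles, build mm10 was used with DESeq 1.22.1, STAR 2.5.0a, Cutadapt 1.6 and HTSeq 0.5.3. Neither the annotation nor the strand setting is given in the sources used here. The values were turned back into reads by dividing by the smallest step in each library, and 100% of 138762 came out whole to within 0.01. The 4 entries that name no gene were left out; they held 18.5% to 25.0% of all reads (not unique), 9.67% to 14.2% (no feature), 8.83% to 15.4% (not aligned) and 0.948% to 1.20% (ambiguous).

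Groups and numbers come from the titles and treatment labels. The test was limma 3.58.1 (R 4.3.3, trended and robust prior, two-sided) on log2(scaled count + 1) for 16095 genes with a mean of at least 10, Benjamini-Hochberg adjusted, threshold 0.05; this scale understates changes of low genes. It was tested on simulated data, where 3 unchanged genes were called. The recovered reads were also tested with DESeq2 1.42.0 and edgeR 4.0.16. The tag comparison and its interaction with treatment used the same model. Other settings were pseudocounts of 0.5 and 10, no filter, a mean of at least 50, TMM scaling, blocks, GFP3 libraries alone and leaving out each library in turn. Leaving out libraries 1 and 2, or 9 and 10, was added after seeing the data. Whether neighbouring numbers pair the libraries was checked: deviations from group means correlated at 0.302 (libraries 5 with 6), 0.404 (1 with 2) and 0.252 (9 with 10). They were used as a replicate block in an alternative fit, a pairing that comes from the data and not from the labels.

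Coordinates and exon lengths are from GENCODE M21 (GRCm38), in which 37 of 37 gene IDs matched, 29 with the same version. The members and gene lists were chosen with earlier results of these data known. All 37 markers are described. The rule asked for a value per library for, in each lineage, the 3 most abundant, the 2 with the largest fitted changes and any that passed in any setting, and most others are given in the same way. From each further list it named genes that passed in limma with all 6 libraries or, as none did, the 2 with the largest fitted changes, and from each reference list at most 3. Of the interferon list, 1 gene is not reported here.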

Additional observations from a re-analysis of the deposited data

How the results depend on the processing

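The response of the 36 markers to IFNg had 0 calls with pseudocounts of 0.5 and 10, no filter, a mean of at least 50, TMM scaling, edgeR, DESeq2, both blocks and without libraries 1 and 2 or 9 and 10, the last 2 settings chosen after seeing the data. Leaving out 1 library gave 0 to 1 calls and the GFP3 libraries alone gave 1, Sst in both cases. Neighbouring numbers as a replicate block changed no call of a marker, and the title tag as a block gave 0 calls too. The cause of the differences below was not tested.

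The fitted sign held for 12 markers in all settings run and turned for 24 in at least 1, and markers above 0 numbered 3 (without untreated 1) to 22 (without untreated 9). Log2 changes that turned in edgeR were -0.28 for Tff3, -0.19 for Zg16, -0.16 for Gip, -0.030 for Tac1, 0.16 for Ghrl, -0.018 for Trpm5, -0.015 for Pou2f3 and -0.049 for Rgs13. In DESeq2 they were -0.20 for Tff3, -0.079 for Zg16, -0.065 for Gip and 0.24 for Ghrl. Under TMM scaling they were -0.018 for Trpm5 and -0.031 for Rgs13. In the GFP3 libraries alone they were -0.13 for Tac1 and 0.011 for Apoa1. Without libraries 1 and 2 they were -0.41 for Tff3, -0.13 for Zg16, -0.87 for Gip, 0.54 for Ghrl, -0.048 for Trpm5, -0.000529 for Pou2f3, -0.028 for Rgs13 and -0.16 for Fabp2. Without libraries 9 and 10 they were 0.30 for Agr2, 0.33 for Klk1, -0.16 for Alpi, 0.092 for Sis and 0.26 for Lct. Leaving out 1 library in turn gave ranges of -0.68 to 0.13 for Muc2, -0.87 to 0.73 for Tff3, -1.24 to 0.57 for Fcgbp, -0.88 to 0.29 for Clca1, -0.75 to 0.41 for Agr2, -0.89 to 0.0010 for Spink4, -0.78 to 0.80 for Zg16, -0.55 to 0.55 for Klk1, -1.03 to 0.27 for Chga, -1.03 to 0.011 for Chgb, -0.86 to 2.42 for Gip, -0.73 to 0.17 for Sct, -0.32 to 2.28 for Cck, -0.20 to 0.56 for Tac1, -0.97 to 0.88 for Ghrl, -0.083 to 0.15 for Trpm5, -0.13 to 0.45 for Pou2f3, -0.27 to 0.26 for Rgs13, -0.69 to 0.22 for Apoa1, -0.33 to 0.40 for Fabp2, -0.64 to 0.60 for Sis, -0.69 to 0.075 for Lct and -0.37 to 0.044 for Vil1.

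Over all tested genes, 67 were higher with IFNg, against 457 in DESeq2, 108 with the title tag as a block, 1337 in the GFP3 libraries alone, 34 without libraries 1 and 2, 32 without 9 and 10, and 41 to 366 without 1 library. Those lower numbered 2, against 8 in DESeq2, 11 in the GFP3 libraries alone, 1 to 3 without 1 library, and 1 each with a pseudocount of 0.5, a mean of at least 50, the replicate block, without libraries 1 and 2 and without 9 and 10. Further goblet genes gave 1 call in DESeq2 and 1 in the GFP3 libraries alone, enteroendocrine genes 2 and 2, and enterocyte genes 2 and 4, the last with 0 to 2 without 1 library. Between tags, markers higher in GFP3 ranged from 0 to 8 and lower from 0 to 1 without 1 library; DESeq2 gave 3 lower and leaving out libraries 9 and 10 gave 5. All tested genes higher in GFP3 numbered 550 in edgeR, 1726 in DESeq2, 114 without libraries 1 and 2 and 50 to 797 without 1 library. Those lower numbered 205, 1154, 5 and 1 to 567. The number of libraries, 3 a group and 2 with the tag GFP1, limits these tests, and read depth limits Il25 and the hormone values near the floor. Where 1 GFP1 library was left, it was assumed to vary like the others.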

Other observations

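Chosen after its values were seen, Cpe, the carboxypeptidase that finishes prohormone cleavage, had 155, 64.5 and 118 scaled counts untreated and 194, 260.3 and 941 with IFNg. All 3 IFNg libraries lay above the untreated ones (log2 change 1.76 ± 0.60 (SE), adjusted p = 0.366 in limma), and the adjusted p was 0.0409 in DESeq2 and 0.0389 in limma on the GFP3 libraries alone. Also named after their values were seen, 2 further enterocyte genes passed in the GFP3 libraries alone, where 8.27% of all genes were higher: Dgat1, which completes triglyceride synthesis (limma adjusted p = 0.0222), and Fabp6, the bile acid carrier of the ileum (limma adjusted p = 0.0483). Fabp6 had 220.2, 24.1 and 45.3 scaled counts untreated and 135, 137 and 101 with IFNg, so untreated 5 exceeded every IFNg library.

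Between the title tags, 2 of 18 further goblet genes, Ern2 and Reg4, were higher in GFP3, with log2 differences of 2.02 and 2.44 (limma adjusted p = 0.0187 and 0.0229), beside 5.47% of all tested genes. Ern2 encodes an endoplasmic reticulum stress sensor of mucous cells and Reg4 a lectin of secretory cells. Of 24 further enteroendocrine genes 1 was lower in GFP3, the endocrine commitment factor Insm1 (-1.69, limma adjusted p = 0.0455), beside 2.28% of all tested genes.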
